A study of Mus musculus with 50 samples.

Results

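Immediate-early-gene-high stem cells were chosen by the measured messenger RNA levels of 6 immediate early genes, Fos, Egr1, Junb, Nr4a1, Nr4a2 and Klf6, among the cells of a haematopoietic stem cell (HSC) gate. A cell was kept with 1000 or more genes detected and no more than 10% of its counts mitochondrial. Levels are in CPM, the counts of a gene scaled to the cell's or group's total. The gate took kept cells with Procr, which encodes the sort marker CD201, at 50 CPM or more, any count of Mecom or Hlf, and less than 30 CPM of Mki67, Top2a and Birc5 in sum. The score of a cell was its mean log2(CPM + 1) over the 6 genes, and the top 10% of the gate by this score formed the high cells. They numbered 186 of 1862 gate cells, which is 4.35% of the 4271 cells used. The 931 cells of the lower 50%, called low-score cells below, were the comparison, and the 745 cells between them are called middle cells.

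Each recipient was transplanted with 1 HSC of a B6-Ly5.2 donor that carried a β-actin-GFP transgene, together with competitor cells of whole marrow from B6-Ly5.2 mice. The recipients were lethally irradiated and of the same strain. The labels list 10 samples at 1 month after transplantation, 26 at 4 months and 14 at 12 months, of which 5, 4 and 6 are of marrow and spleen. Marrow was flushed from bones and spleen was ground, cells carrying c-Kit were enriched on columns, and single cells were sorted by CD201, CD150, CD48, Sca-1, c-Kit and lineage markers or by GFP. No cell name carries a sample title (0 of 4271), so the high cells could not be assigned to a month, a tissue, a mouse, or a donor, recipient or competitor origin. All cells were therefore treated as 1 pooled sample, and no p-value was computed. Surviving host cells and competitor cells can be among them wherever a sort did not use GFP.

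Immediate early genes are transcribed within minutes of a signal such as a growth factor, a cytokine or stress, from promoters that need no new protein. Fos and Junb are subunits of the AP-1 factor, Egr1 is a zinc-finger factor, Nr4a1 and Nr4a2 are orphan nuclear receptors, and Klf6 is a Krüppel-like factor. Dual-specificity phosphatases and RNA-decay proteins, themselves encoded by early genes, switch the response off again. In HSCs, members of the Egr, AP-1 and Nr4a families are known for roles in quiescence, and the same genes are also known to respond to tissue handling and cell sorting.

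Promoter windows are shown for Fos, as a score gene, and for 4 genes outside the score that were higher in the high cells and hold a whole cAMP response element. This element, TGACGTCA, is its own reverse complement and binds CREB-family factors, and TGACG is its shorter form. Each window runs from 250 bases before to 50 after the transcription start, 5′ to 3′ on the gene's strand, from RefSeq on build GRCm38.p6. Capitals mark TGACG in Fos and TGACGTCA in the others.
Fos, chr12:85473640-85473939, plus strand: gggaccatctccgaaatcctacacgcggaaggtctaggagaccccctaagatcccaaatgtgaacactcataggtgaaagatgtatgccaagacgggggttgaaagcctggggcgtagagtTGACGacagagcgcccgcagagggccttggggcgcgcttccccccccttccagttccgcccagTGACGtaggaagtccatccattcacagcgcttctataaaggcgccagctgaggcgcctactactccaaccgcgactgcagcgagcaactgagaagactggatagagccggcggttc
Dusp1, chr17:26508423-26508722, minus strand: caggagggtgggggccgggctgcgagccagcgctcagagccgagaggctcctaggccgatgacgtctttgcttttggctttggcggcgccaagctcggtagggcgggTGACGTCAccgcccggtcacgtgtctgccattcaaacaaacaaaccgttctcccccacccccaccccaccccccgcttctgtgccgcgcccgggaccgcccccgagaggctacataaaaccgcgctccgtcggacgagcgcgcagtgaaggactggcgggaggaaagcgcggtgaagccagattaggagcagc
Btg2, chr1:134079106-134079405, minus strand: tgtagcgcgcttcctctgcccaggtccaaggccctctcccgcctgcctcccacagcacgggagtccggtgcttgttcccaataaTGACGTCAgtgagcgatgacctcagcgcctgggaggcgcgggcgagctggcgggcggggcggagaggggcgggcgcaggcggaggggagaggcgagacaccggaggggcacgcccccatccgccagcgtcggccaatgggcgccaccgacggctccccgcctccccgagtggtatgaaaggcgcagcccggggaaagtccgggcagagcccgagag
Ppp1r15a, chr7:45526219-45526518, minus strand: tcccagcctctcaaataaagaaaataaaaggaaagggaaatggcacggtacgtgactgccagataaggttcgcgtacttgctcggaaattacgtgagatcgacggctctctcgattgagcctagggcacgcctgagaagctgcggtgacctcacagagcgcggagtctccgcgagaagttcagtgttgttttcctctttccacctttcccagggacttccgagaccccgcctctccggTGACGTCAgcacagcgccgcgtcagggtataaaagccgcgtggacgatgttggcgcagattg
Plk2, chr13:110394794-110395093, plus strand: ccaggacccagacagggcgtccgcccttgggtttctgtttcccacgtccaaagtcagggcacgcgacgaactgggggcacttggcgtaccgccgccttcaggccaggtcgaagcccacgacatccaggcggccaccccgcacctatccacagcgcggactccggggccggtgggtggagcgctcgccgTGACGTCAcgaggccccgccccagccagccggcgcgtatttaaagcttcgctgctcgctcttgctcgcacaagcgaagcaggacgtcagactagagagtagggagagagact

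Among the 133 genes that were at least 2-fold higher in the high cells than in the low-score cells (1.8% of the 7378 genes compared, as defined below), 96 had a window and 6 of them (6.25%) held TGACGTCA, namely Btg2, Dusp1, Maff, Nfkbid, Plk2 and Ppp1r15a. A gene is counted here when any of its windows holds the motif. The share was 3.85% among the 52 lower genes with a window and 3.78% among the 5880 genes compared with a window. Among all 27025 RefSeq genes it was 2.03%. The short form TGACG was searched on both strands and counted also where it lies inside TGACGTCA. With a window, 46.9% of higher genes, 30.8% of lower genes, 38.6% of all genes compared and 23.0% of all RefSeq genes held TGACG. It was in 4 of the 5 score genes with a window (Fos, Junb, Nr4a1 and Nr4a2), and Klf6 held none. The AP-1 motif TGANTCA was in 9.38% of higher genes, 11.5% of lower genes, 5.77% of genes compared and 8.97% of all RefSeq genes. The serum response factor motif (CArG box) was in 3.13%, 5.77%, 1.53% and 1.81% of the same 4 sets. Of the 5 score genes with a window, 0 held TGACGTCA, 0 held TGANTCA and 0 held a CArG box. A match is a description of these letters, and binding was not measured.

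The 6 score genes chose the high cells, so their values describe the choice. High cells scored between 7.85 and 11.1, with a median of 8.60, middle cells had a median of 5.90, and low-score cells lay between 0 and 4.39 with a median of 2.94. The last cell inside the border scored 7.845 and the first outside it 7.844, so the border cut a continuous range. Fos had a lowest, median and highest level of 233, 3483 and 24877 CPM in high cells, against 0, 20.3 and 5177 CPM in low-score cells. The 2 groups overlapped for each of the 6 genes in single cells. In the summed counts, Fos stood at 3917 CPM (95% Poisson interval 3892 to 3942) in high cells, 1457 CPM in middle cells and 165 CPM (163 to 167) in low-score cells. Such intervals and the binomial intervals below cover counting error only, and reads amplified from 1 molecule are not independent.

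Nr4a1, a receptor that is itself induced without a ligand, had 665 CPM in high cells, 128 in middle cells and 9.04 in low-score cells. Egr1 had 497, 180 and 27.4 CPM, and Junb had 1184, 427 and 93.9 CPM in the same order. Klf6 stood at 850 CPM in high cells, 319 CPM in middle cells and 90.3 CPM in low-score cells. Nr4a2 was at 117 CPM in high cells, 20.6 CPM in middle cells and 4.31 CPM in low-score cells. Nr4a2 was the score gene most often missing: it was detected in 71.5% of high cells, against 10.1% of low-score cells, while each of the other score genes was detected in at least 97.3% of high cells. All 6 genes were detected in 125 high cells and 5 of them in the other 61, whereas 19 low-score cells held all 6 and 30 held none.

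The score genes varied together over the gate and much less among the high cells. The Spearman correlations of the 15 gene pairs over 1862 gate cells ranged from 0.16 to 0.54, with a median of 0.34. Among the 186 high cells they ranged from -0.17 to 0.25, with a median of 0.09, in a range of scores that the choice had narrowed. The pairs share cells and depth, and no p-value belongs to them. The 133 high cells with a count of Nr4a2 came from 42 libraries, with a median of 115821 counts per cell, and the 53 without it from 26 libraries, with a median of 82100, so depth differed between them. In the high cells with Nr4a2, Cdkn1c, which encodes the CDK inhibitor p57, had 33.9 CPM, against 4.27 CPM in those without it. Cdkn1c was detected in 15.1% of high cells, so this difference rests on few cells. Other genes detected in less than 25% of high cells differed both ways: Clu had 28.5 and 0.986 CPM, and Ly6c2 3.45 and 16.9 CPM, in the same order. Klf2, another Krüppel-like factor, had 154 CPM in high cells with Nr4a2 and 276 CPM in those without it. A cell without Nr4a2 had to reach the border with the other 5 score genes (Fos had 3631 CPM in high cells with Nr4a2 and 4789 CPM in those without it), so levels of genes that vary with them are partly set by the choice. The part of depth in these values was not tested.

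Median depth was lowest in the high cells. The median was 111442 counts and 4239 detected genes per cell in high cells, 130270 and 4295 in middle cells, and 135657 and 4075 in low-score cells. The median mitochondrial share was 1.65% in high cells, 1.68% in middle cells and 1.74% in low-score cells. With every cell thinned to 20000 counts, which left out 13 high cells and 40 low-score cells, 145 genes were at least 2-fold higher and 60 lower.

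They were unevenly spread over the libraries. Of 64 libraries with gate cells, 44 held high cells. Among the 38 libraries with at least 20 gate cells, high cells made up 0% to 47.6% of the gate, with a median of 6.63%, and 9 of these libraries, with 413 gate cells together, held none. The 10 libraries named Lib6 to Lib15 held 61 of 153 gate cells (39.9%, exact 95% interval 32.1% to 48.1%), which is 32.8% of all high cells, against 125 of 1709 (7.31%, 6.12% to 8.65%) in the other libraries. The 4 libraries named Lib68 to Lib71 held 0 of 225 gate cells, which allows a share of up to 1.33%. Differences between libraries made up 32.6% of the variance of the score, and libraries cannot be told apart from mice, months, tissues and sorting days here.

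The level of the score was shared by the cells outside the gate. Over the 38 libraries, the median score of gate cells and that of kept cells outside the gate had a Pearson correlation of 0.83 and a Spearman correlation of 0.82, and 0.84 (Pearson) without the 2 libraries farthest from the median. Points share library, tube handling and depth. In Lib6 to Lib15 the medians were 6.13 to 8.08 inside the gate and 4.57 to 6.61 outside it, and in Lib68 to Lib71 they were 2.29 to 3.19 inside and 1.24 to 2.47 outside. With median counts per cell the score correlated at -0.21 (Pearson) and -0.09 (Spearman), and with the median mitochondrial share at -0.00 and -0.03. The state was also found in other cells: 63 of 733 cells that met the Procr and the Mecom or Hlf condition but passed the cycling limit reached the lowest score of the high cells (8.59%, 6.67% to 10.9%), and so did 94 of 1537 kept cells with Procr under the minimum (6.12%, 4.97% to 7.43%). The part of tissue handling and sorting in the score was not tested.

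**Figure D1:**
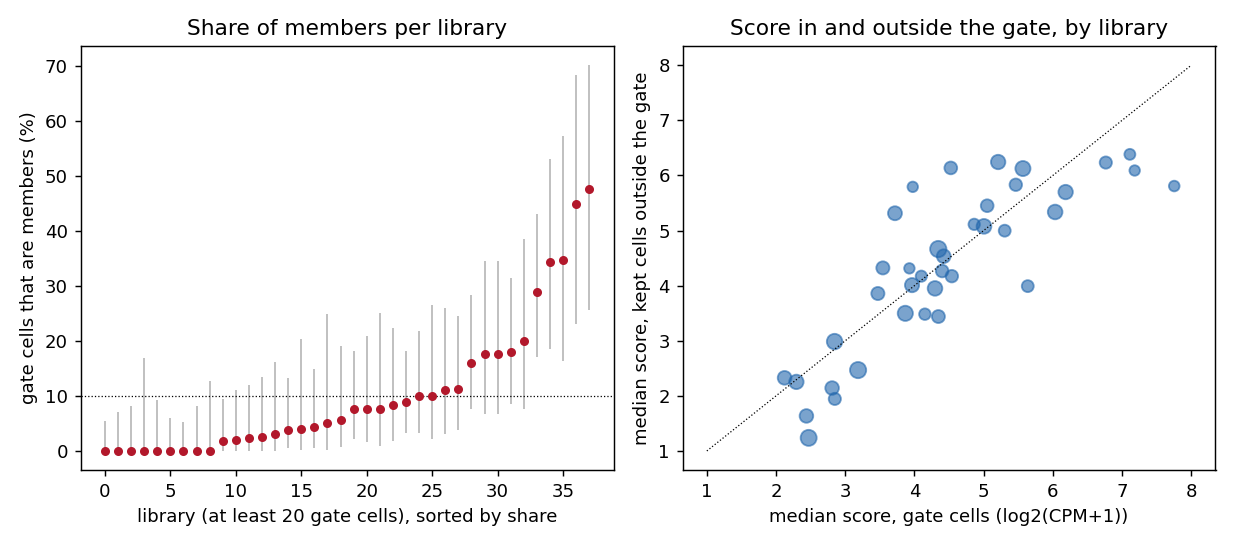
Share and score by library. Left: the percentage of gate cells that are high cells in each of 38 libraries with at least 20 gate cells, sorted, with exact 95% intervals as lines, and a dotted line at 10%. The shares run from 0% to 47.6%. Right: the median score of gate cells (x axis) against that of kept cells outside the gate (y axis) in the same libraries, with larger points for more gate cells and a dotted line of equality. Libraries with high scores inside the gate also had high scores outside it (Pearson 0.83).

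Outside the 6 score genes and the 6 gate genes, 7378 genes had 16 CPM or more in the summed counts of high cells or of low-score cells. With 1 CPM added to each level, 133 were at least 2-fold higher in high cells (1.8%) and 72 were at least 2-fold lower (0.976%), and the median over all genes was -0.02 (log2). Of the higher genes 71 reached 16 CPM in high cells only, and of the lower genes 57 reached it in low-score cells only, so these had to differ. With equal weight for each cell 122 genes were higher and 36 lower, and without the libraries Lib6 to Lib15, 145 were higher and 78 lower. These genes were read in the cells that the score had sorted, so the counts describe the state and test nothing. To set library differences aside, the top 10% and the lower 50% were also chosen within each of the 38 libraries with at least 20 gate cells, which gave 154 high and 774 low-score cells, 81 and 661 of them the same as before. Then 98 of 7354 genes were higher (1.33%) and 55 were lower (0.748%). Of the higher genes, 55 were shared, which is 41.4% of the first list and 56.1% of the second. Of the lower genes, 23 were shared, which is 31.9% and 41.8%.

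Early response genes made up the upper end of the list. The 5 genes whose levels followed the score most closely over the 1862 gate cells, among 6321 genes detected in at least 25% of them, were Zfp36 (Spearman 0.60), Dusp1 (0.59), Ier2 (0.55), Ppp1r15a (0.52) and Jun (0.44). The genes with the largest differences among those detected in at least 25% of the cells of the higher group and higher in at least 3 of 4 libraries are described next by role. Libraries here are the 19 that held at least 3 high and 3 low-score cells.

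Of the 11 genes on the AP-1 list 7 were compared, 2 of them through the high cells only, and 5 were higher in the high cells. The list median was 1.91 (log2), 1.07 with no filter on level and 1.08 without Lib6 to Lib15. Fosb, a dimer partner of the Jun proteins, stood at 281 CPM in high cells, 115 CPM in middle cells and 25.7 CPM in low-score cells, and was higher in 19 of 19 libraries. Its log2 difference was 3.40 in the pooled comparison and 2.86 within libraries. Jun itself had 827 CPM in high cells, 528 CPM in middle cells and 172 CPM in low-score cells (log2 2.26), and was higher in 18 of 19 libraries. Fosl2 had 99.3 CPM in high cells and 25.7 CPM in low-score cells (log2 1.91). Atf3, a stress-responsive AP-1 partner, had 22.3 CPM in high cells against 0.429 CPM in low-score cells, but only 9.68% of high cells had a count of it and 1 cell gave 22.9% of its counts. Maff was at 18.8 CPM in high cells, against 8.45 CPM in low-score cells (log2 1.07), with 8 libraries higher and 9 lower. Mafg, a small Maf factor, did not reach 2-fold (log2 -0.51).

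Klf2 and Hes1 had the largest differences in that set, and of the 4 Egr, Nr4a and Klf genes compared outside the score, Klf2 and Klf9 passed 2-fold. Klf2, a factor known for quiescence in lymphocytes and endothelium, had 184 CPM in high cells, 37.2 CPM in middle cells and 6.83 CPM in low-score cells (log2 4.56). As Klf2 reached 16 CPM in high cells only, it had to be higher. It was detected in 52.7% of high cells, against 15.4% of low-score cells, and was higher in 17 of 19 libraries. Its differences by library lay between -4.55 and 7.20 (log2), with a median of 5.14. Hes1, a repressor downstream of Notch, stood at 423 CPM in high cells, 73.0 CPM in middle cells and 20.9 CPM in low-score cells, and was higher in 15 of 19 libraries (log2 4.28, and 3.14 within libraries). Klf9 had 64.3 CPM in high cells against 27.3 CPM in low-score cells (log2 1.21, 0.75 within libraries), while Klf10 (163 CPM in high cells, 144 CPM in low-score cells) and Klf13 (148 and 96.8 CPM) did not reach 2-fold.

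Of 14 feedback regulators of MAP kinase signalling 6 were compared, 2 of them (Dusp5 and Spry1) through the high cells only, and 4 were past 2-fold. The list median was 2.04 (log2), against -0.02 over all genes, 1.35 within libraries and 1.03 with no filter on level. Dusp1, the phosphatase that dephosphorylates p38 and JNK in the nucleus, had 1082 CPM in high cells, 526 CPM in middle cells and 120 CPM in low-score cells. It was higher in 19 of 19 libraries, by between 1.66 and 6.31 (log2). Dusp2, a nuclear phosphatase of ERK, stood at 389 CPM in high cells and 93.3 CPM in low-score cells (log2 2.05), and Dusp5 at 45.7 CPM and 9.13 CPM (log2 2.20). Spry1, a receptor tyrosine kinase antagonist, had 47.2 CPM in high cells, against 10.8 CPM in low-score cells (log2 2.02). Dusp6, the cytoplasmic phosphatase of ERK, was at 80.5 CPM in high cells and 72.3 CPM in low-score cells (log2 0.15), and Spred1 at 18.4 and 24.4 CPM (log2 -0.39), so neither moved by 2-fold.

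Of 10 genes compared that limit early messages, 3 were higher by 2-fold, and the list median was 0.56. Zfp36, which binds AU-rich elements and marks messages for decay, had 728 CPM in high cells, 358 CPM in middle cells and 83.8 CPM in low-score cells, and was higher in 19 of 19 libraries (log2 3.10, 2.60 within libraries). Btg2, an anti-proliferative partner of the deadenylase complex, had 470 CPM in high cells, 134 CPM in middle cells and 26.9 CPM in low-score cells (log2 4.08). It was higher in 17 of 19 libraries and was detected in 74.2% of high cells, against 32.8% of low-score cells. Zc3h12a, an endonuclease that cleaves inflammatory messages, had 23.3 CPM in high cells, against 6.16 CPM in low-score cells (log2 1.77). As Zc3h12a reached 16 CPM in high cells only, it had to be higher. The related Zfp36l2, at 150 CPM in high cells and 103 CPM in low-score cells (log2 0.54), did not reach 2-fold.

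Of 12 cAMP and CREB genes compared, 8 passed 2-fold, and the list median was 1.59 (log2), against 1.27 within libraries. Of the 12, 3 reached 16 CPM in high cells only, Sik1 among them, so these had to be higher. The list overlaps other lists here: Dusp1 and Ppp1r15a are on it too. Ppp1r15a, the GADD34 subunit that returns eIF2 to its active form, had 939 CPM in high cells, 373 CPM in middle cells and 134 CPM in low-score cells, and was higher in 19 of 19 libraries. Rgs1, a brake on G-protein-coupled receptors, had 1220 CPM in high cells, 845 CPM in middle cells and 416 CPM in low-score cells, and Rgs2 had 432, 320 and 138 CPM in the same order, each higher in 19 of 19 libraries. Sik1, a kinase induced by cAMP, had 42.3 CPM in high cells and 5.23 CPM in low-score cells (log2 2.80). Per1, a clock gene induced by glucocorticoids and cAMP, had 83.0 CPM in high cells and 17.6 CPM in low-score cells (log2 2.18, and 1.14 within libraries).

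The glucocorticoid list had 6 of 8 genes past 2-fold in the pooled comparison and 2 within libraries. Of the 8, 2 reached 16 CPM in high cells only, Sgk1 among them, so these had to be higher. Tsc22d3, the gene of GILZ, had 840 CPM in high cells, 609 CPM in middle cells and 402 CPM in low-score cells (log2 1.06, 0.54 within libraries). Sgk1, a kinase of the same response, had 66.1 CPM in high cells and 10.8 CPM in low-score cells (log2 2.51, 0.82 within libraries). Tsc22d1 had 1382 CPM in high cells, 839 CPM in middle cells and 577 CPM in low-score cells (log2 1.26, 0.86 within libraries). It was higher in 18 of 19 libraries. So the differences of Tsc22d3, Sgk1 and Tsc22d1 were smaller, and short of 2-fold, when cells were chosen within libraries.

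Of 13 NF-kB targets and regulators, 3 passed 2-fold, and the list median was 0.76 (log2). Of the 13, 4 reached 16 CPM in high cells only, among them Nfkbid and Cxcl2, so these had to be higher. Nfkbiz, an atypical inhibitor of NF-kB, had 91.9 CPM in high cells and 18.8 CPM in low-score cells (log2 2.23), and Nfkbid, a related inhibitor, had 62.3 and 13.2 CPM (log2 2.16). Cxcl2, a neutrophil-attracting chemokine, had 61.2 CPM in high cells and 1.20 CPM in low-score cells, but it was detected in only 12.9% of high cells and 1 cell gave 32.9% of its counts. Among 9 cytokine feedback genes, Socs3, Cebpb, Cish and Pim3 passed 2-fold. Socs3 and Cebpb reached 16 CPM in high cells only, so these had to be higher. Socs3, an inhibitor of cytokine receptor signalling, had 72.0 CPM in high cells, against 11.8 CPM in low-score cells (log2 2.52), while Socs2 had 192 CPM in high cells and 161 CPM in low-score cells (log2 0.25).

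Other early genes moved with them, 7 of 13 past 2-fold. Of the 13, 4 reached 16 CPM in high cells only, so these had to be higher. Ier2 had 1211 CPM in high cells, 579 CPM in middle cells and 215 CPM in low-score cells, and was detected in 100% of high cells. Plk2, a kinase induced by p53 and serum, had 162 CPM in high cells, 43.5 CPM in middle cells and 17.1 CPM in low-score cells (log2 3.17, 2.12 within libraries). Mcl1, which opposes apoptosis, had 148 CPM in high cells and 73.8 CPM in low-score cells, a difference of 0.99 (log2). Myc, also an early gene, had 335 CPM in high cells and 313 CPM in low-score cells and was detected in 87.6% of high cells and 87.4% of low-score cells.

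Early genes rose over the gate, some of them mainly in its upper part. The gate was divided by score into 10 bins of 186 or 187 cells, from bin 1 (lowest) to bin 10 (the high cells). Dusp1 had 64.5 CPM in bin 1, 173 CPM in bin 5, 804 CPM in bin 9 and 1082 CPM in bin 10. Zfp36 had 80.3, 95.5, 535 and 728 CPM in the same bins, and stood at 65.0 CPM in bin 2 and 196 CPM in bin 6. Hes1 had 17.1 CPM in bin 1, 16.1 CPM in bin 6, 118 CPM in bin 9 and 423 CPM in bin 10, so that its largest step was the last. The gate genes Procr (340 to 405 CPM), Mecom (153 to 181 CPM) and Hlf (199 to 268 CPM) were required of the cells of every bin, so their levels describe the gate.

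**Figure D2:**
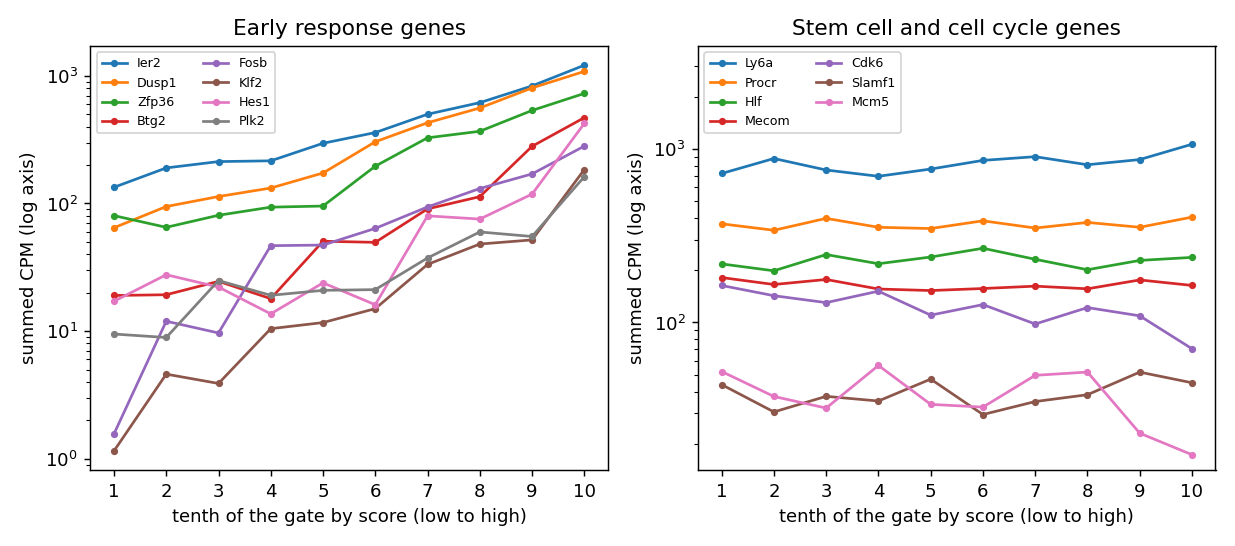
Levels over the score. Summed CPM (log axis) of early response genes (left) and of stem cell and cell cycle genes (right) in 10 bins of the gate by score, from the lowest (1) to the highest (10), 186 or 187 cells each. The early genes are higher in bin 10 than in bin 1, some rising mainly in the upper bins. Dusp1 reaches 1082 CPM, and Cdk6 stands at 70.6 CPM in bin 10. Procr, Mecom and Hlf were used by the gate.

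**Figure D3:**
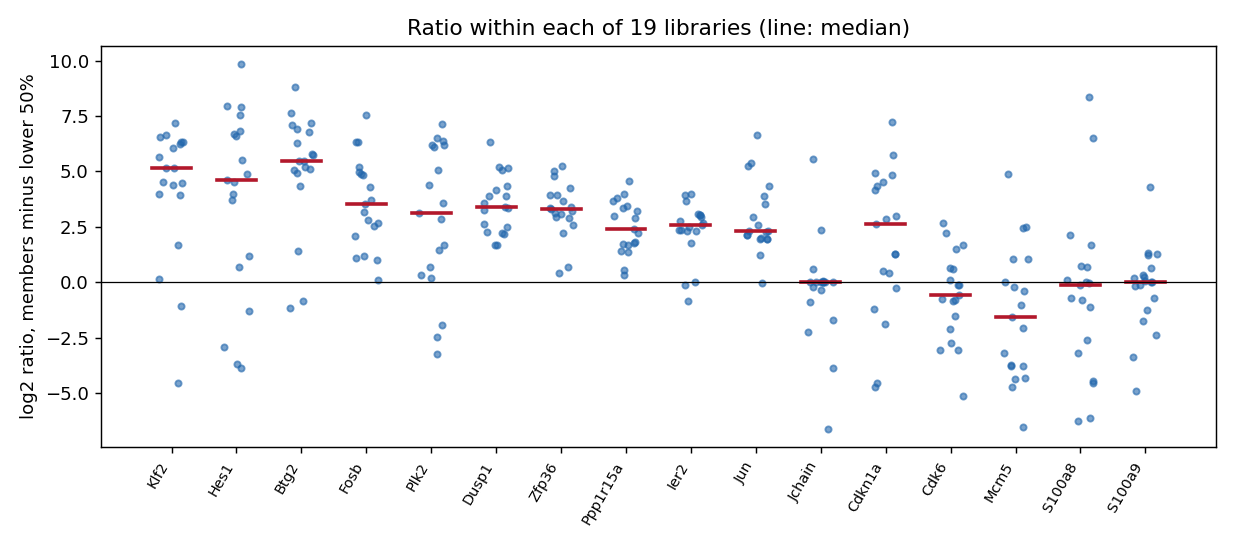
Differences within libraries. Log2 ratio of summed CPM, high minus low-score cells, for selected genes in each of the 19 libraries that held 3 or more cells of each group (points), with the median as a line. Dusp1, Zfp36, Fosb and Ppp1r15a lie above 0 in every library shown, while Jchain lies above it in 4 of them.

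HSC identity genes had similar levels in high and low-score cells, as most genes compared did. Of 20 HSC identity genes compared, 0 passed 2-fold in either direction, and the list median was 0.08 (log2). Over all 7378 genes compared, 1.8% were higher and 0.976% lower by 2-fold. A count of 0 in a list of this length, here and in the lists below, is near that share. Ly6a, which encodes Sca-1, had 1065 CPM in high cells and 764 CPM in low-score cells (log2 0.48). Slamf1, which encodes CD150, had 44.9 CPM in high cells, against 38.7 CPM in low-score cells, and Kit had 141 CPM in high cells, against 164 CPM in low-score cells. The multipotent progenitor genes Cd34 (141 CPM in high cells, 195 CPM in low-score cells) and Flt3 (34.8 and 23.6 CPM) did not reach 2-fold either. Satb1 was the 1 gene of 9 on that list past 2-fold, with 46.4% of its counts from 1 cell. As Satb1 reached 16 CPM in high cells only, it had to be higher.

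Genes of DNA replication had lower levels in high cells. All 23 compared lay below 0, with a median of -0.53 (log2), and 3 passed 2-fold. Of the 23, 5 reached 16 CPM in low-score cells only, Cdt1 among them, so these had to be lower. Mcm5, a subunit of the replicative helicase, had 17.3 CPM in high cells, 39.2 CPM in middle cells and 42.3 CPM in low-score cells (log2 -1.24, -1.03 within libraries). Cdt1, which loads that helicase at replication origins, had 7.39 CPM in high cells, against 21.4 CPM in low-score cells (log2 -1.42, -1.57 within libraries). With equal weight for each cell Mcm5 (-0.74) and Cdt1 (-0.89) did not reach 2-fold, and the list median was -0.35. Cdk6, which sets the time of exit from quiescence, had 70.6 CPM in high cells, 114 CPM in middle cells and 138 CPM in low-score cells (log2 -0.96), and was lower in 12 of 19 libraries. The gate already excluded cells with more than 30 CPM of the 3 cycling genes. Usp1, a deubiquitinase of DNA repair, was among the genes lower in the named set, with 12.3 CPM in high cells, against 36.7 CPM in low-score cells (log2 -1.51). Ccnt2, Trmt13, Ankle2 and Pold1, the catalytic subunit of DNA polymerase delta, were also lower by 2-fold in that set, at -1.18 to -1.46 (log2). With equal weight for each cell these 5 genes stood at -0.65 to -0.96, short of 2-fold, and Ccnt2 (-0.99) and Pold1 (-0.74) were short of it within libraries too. Usp1, Trmt13, Ankle2 and Pold1 reached 16 CPM in low-score cells only, so they had to be lower. Usp1 was detected in 26.3% of high cells and 27.5% of low-score cells, and Pold1 in 26.9% of each. Plac8, a small cysteine-rich protein, had 272 CPM in high cells, against 503 CPM in low-score cells (log2 -0.89), but its difference was 0.04 within libraries. Of 33 oxidative phosphorylation genes and of 23 ribosome biogenesis and MYC target genes, 0 passed 2-fold, with medians of -0.12 and -0.13.

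Of 14 quiescence genes compared, 4 passed 2-fold, and the list median was 0.28. Of the 14, 5 reached 16 CPM in high cells only, among them Cdkn1a, Cdkn1c and Ndn, so these had to be higher. Cdkn1a, the CDK inhibitor p21, had 95.2 CPM in high cells, 33.7 CPM in middle cells and 8.49 CPM in low-score cells (log2 3.34, 2.29 within libraries), and was higher in 14 of 19 libraries. Cdkn1c had 26.6 CPM in high cells, against 9.60 CPM in low-score cells (log2 1.38, 0.82 with equal weight for each cell). It was detected in 15.1% of high cells, against 11.3% of low-score cells, with 10 libraries higher and 8 lower. Ndn, a growth suppressor, had 31.2 CPM in high cells, against 9.85 CPM in low-score cells. The p53 list had 3 of 11 past 2-fold, namely Btg2, Plk2 and Cdkn1a, of which Btg2 and Plk2 are also early genes, and its median was 0.30. Among the adhesion and niche receptor genes, S1pr1, which guides cells out of tissue along sphingosine-1-phosphate, had 91.8 CPM in high cells, against 28.8 CPM in low-score cells (log2 1.64, 1.73 within libraries).

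Of the heat-shock chaperones, 0 of 11 passed 2-fold, with a median of -0.02. Dnajb1 was at 247 CPM in high cells and 141 CPM in low-score cells (log2 0.80), and Hsp90aa1 at 824 and 947 CPM (log2 -0.20). The integrated stress response list had 2 of 13 past 2-fold, Ppp1r15a and Slc7a11. Slc7a11 had 16.4 CPM in high cells and 1.72 CPM in low-score cells, was detected in 8.06% of high cells, and 1 cell gave 32.0% of its counts there. As Slc7a11 reached 16 CPM in high cells only, it had to be higher. Atf4 was at 290 CPM in high cells, against 180 CPM in low-score cells (log2 0.68). Interferon genes had 0 of 24, MHC class I genes 0 of 12, glycolysis genes 0 of 16 and G1 cyclins and CDKs 0 of 7 past 2-fold. Of 8 TGF-beta and BMP targets 3 were higher (Id1, Skil and Smad7). All 3 reached 16 CPM in high cells only, so they had to be higher. The list median was 0.82 (0.29 within libraries), and by library it was 0.06, with 10 libraries higher and 8 lower. The BMP target Id1 had 34.0 CPM in high cells and 5.32 CPM in low-score cells (log2 2.47), in 9 libraries higher and 4 lower. Of 22 adhesion and niche receptor genes 3 were higher and 1, Vcam1, was lower. Vcam1 reached 16 CPM in low-score cells only, so it had to be lower.

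Of 15 genes compared that are known to be higher in HSCs of old mice, 3 (Mt1, Clu and Tm4sf1) passed 2-fold, and 1 did within libraries. The list median was 0.61 (0.35 within libraries), and by library it was -0.12, with 8 libraries higher and 10 lower. Mt1, a metallothionein, had 231 CPM in high cells and 75.1 CPM in low-score cells (log2 1.61, 0.76 within libraries), and Tm4sf1 was higher in 7 and lower in 11 libraries. Vwf, a marker of platelet-primed HSCs, had 28.4 CPM in high cells and 17.9 CPM in low-score cells, with 8 libraries higher and 11 lower. Clu passed 2-fold with 48.7% of its counts from 1 high cell, and was -0.13 (log2) within libraries. Of 13 platelet priming genes 2 passed 2-fold, Ppbp and Clec1b, with 92.1% and 43.5% of their counts from 1 high cell, and 0 did within libraries. Clu, Ppbp and Clec1b reached 16 CPM in high cells only, so they had to be higher.

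**Figure D4:**
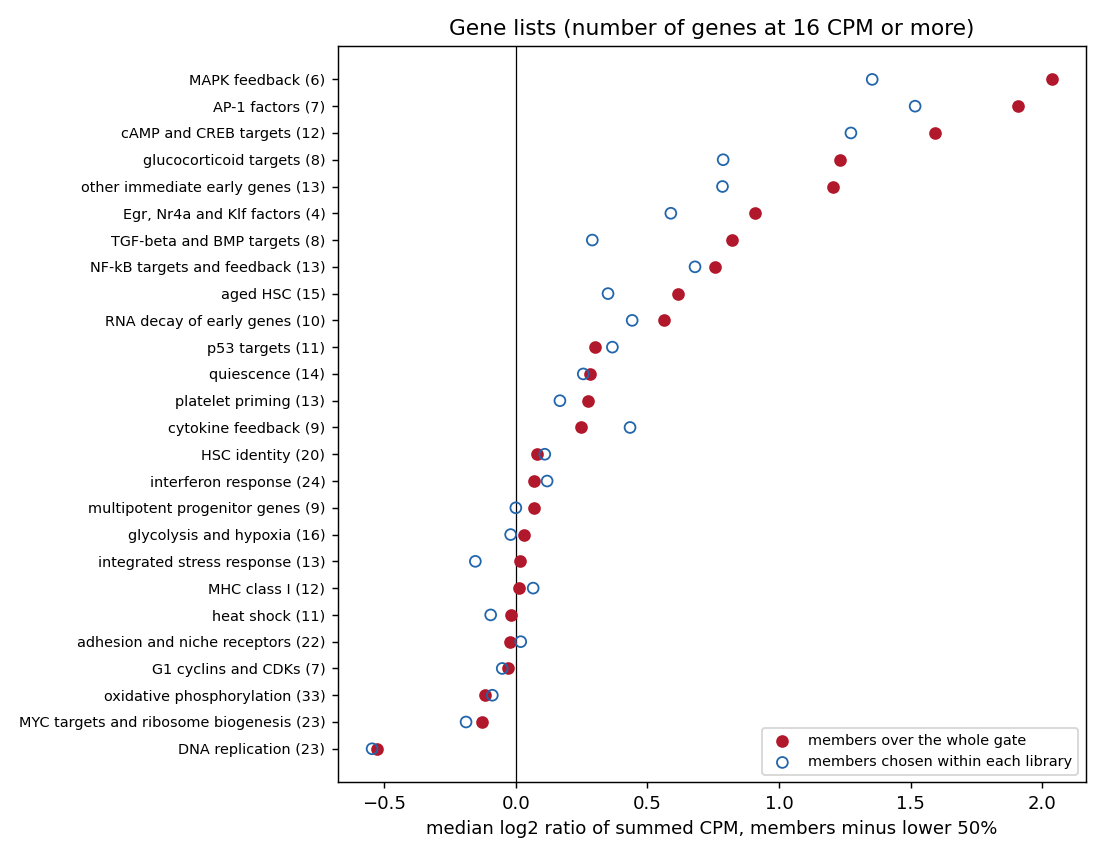
Median log2 ratio (x axis) of each gene list (y axis, with the number of genes compared), high minus low-score cells, for cells chosen over the whole gate (filled) or within each library (open). The AP-1, MAPK feedback and cAMP lists lie right of 1 in both, while the HSC identity and heat shock lists lie near 0.

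Markers of other cell types moved with the comparison. All 7 neutrophil markers compared were lower in high cells, with a median of -3.10 (log2) and -1.64 within libraries, and 6 of the 7 were past 2-fold lower within libraries too. Their summed level was 163 CPM in high cells and 1211 CPM in low-score cells. Of the 7, 4 reached 16 CPM in low-score cells only, so these had to be lower. For each of Ltf, Lcn2, Ngp, Camp, S100a9 and Retnlg, 1 cell gave 21.6% to 38.4% of the counts in low-score cells. S100a9 was detected in 35.5% of high cells and 35.6% of low-score cells, and Ngp in 15.1% and 22.0%. By library the median of the list was 0.00, with 5 libraries higher and 4 lower, and 6 libraries whose gate cells had a median of 1000 CPM or more of these markers held 4.30% of high cells and 9.45% of low-score cells. Of 5 erythroid markers 3, all globins, were lower by 2-fold, with a list median of -1.20 (-0.73 within libraries). Monocyte and macrophage markers were at 71.0 CPM in high cells and 164 CPM in low-score cells in sum. B-cell markers were at 91.2 CPM in high cells and 76.9 CPM in low-score cells, T-cell and NK markers at 87.5 and 133 CPM, dendritic cell markers at 1425 and 1227 CPM, stromal and endothelial markers at 169 and 161 CPM, and basophil and mast cell markers at 4.42 and 12.0 CPM, with Fcer1a, Gzmb, Ms4a2 and Tpsb2 at 0 in high cells. The part of RNA from other cells in these values was not tested. Of the megakaryocyte markers only Ppbp passed 2-fold, and 1 cell gave 92.1% of its counts in high cells.

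Some genes past 2-fold did not hold within libraries. Besides Ppbp (-0.51) and Clu (-0.13), Jchain, chosen after its values were seen, had 479 CPM in high cells and 31.8 CPM in low-score cells (log2 3.87). It was detected in 50.5% of high cells, against 19.7% of low-score cells, but 1 cell gave 50.6% of its counts in high cells. It was higher in 4 and lower in 8 of the 19 libraries, and when cells were chosen within libraries its difference was -1.06 (log2).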

How the data were processed

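The authors deposited raw counts, whole numbers for each gene in each cell; 19224 genes in 67 libraries of 22 to 92 cells were used here. HISAT2 2.1.0, HTSeq 0.9.1, Trimmomatic 0.36 and build GRCm38 are named in the submitters' processing notes. Per the labels' protocols, single cells were sorted into lysis buffer, doublets were avoided by the sort mode, and 3' ends were enriched and amplified by PCR. Reads and molecules cannot be told apart in these counts from the labels. 17 columns of 1 library were not used. The cell filter left 4185 cells (76 had too few genes and 10 too high a mitochondrial share). No doublet caller was run. The same 93 barcode numbers recur from library to library as well positions, and 0 full cell names are repeated.

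Counts were summed per group of cells and scaled to CPM, 1 CPM was added and log2 ratios were formed in Python 3.11.15 with numpy 2.4.6, scipy 1.17.1 and pandas 2.3.3. Genes at 16 CPM or more in either group were compared, and a gene was counted when its log2 ratio reached 1 or -1. The 35 lists hold 525 genes, of which 522 are in the matrix. The genes named are the score genes, the 10 largest differences each way among genes in 25% of cells of the higher group and in 75% of libraries, up to 6 per list, stem cell markers and the 5 genes closest to the score. The members, the score and the lists were chosen with earlier results of these data known. The summing and ratio step was checked on simulated counts. Alternatives were equal weights per cell, counts thinned to 20000 per cell, other pseudocounts, filters, gates, cut-offs, scores and scalings, cells chosen within libraries, and libraries left out. Comparisons between months or tissues were not run. The values of 1 gene are not reported here.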

Additional observations from a re-analysis of the deposited data

How the results depend on the processing

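No paired analysis was possible because no test was made and the labels tie no replicate number to a cell; cells of 1 library are compared in the report. Against 133 genes higher and 72 lower, 36 were lower when each cell had equal weight. A pseudocount of 10 CPM gave 72 higher and 21 lower, a level of 64 CPM or more gave 51 and 10, and no filter gave 579 and 597, since fewer or more genes then reach the fold. The top 5% of the gate gave 239 and 229, and the top 20% gave 77 and 33; the cause was not tested. Higher genes were 77.2% of those past 2-fold with equal weights, 77.4% with the larger pseudocount, 83.6% at 64 CPM, 49.2% with no filter and 51.1% in the top 5%, against 64.9% in the main comparison. The p53 median became 3.17 at 64 CPM, where few of its genes remain. The highest share of high cells in a library was 33.3% when the gate was set on thinned cells. Leaving out single score genes gave 119 to 129 higher and 59 to 88 lower genes. Without the 6 libraries high in neutrophil markers, an alternative chosen after seeing the data, as was the next, 150 were higher and 65 lower, and without Lib6 to Lib15, 145 and 78. Among values past 2-fold of the genes named by rule, 9 changed sign under an alternative, and list medians near 0 also did. Genes outside that set were not followed under each alternative, and Jchain, which is outside it, changed sign within libraries too. Ly6c2 became 0.27 with equal weights and 0.30 with thinned counts. Ppbp became -1.27 in the top 5%, -0.21 without Nr4a1 in the score, -0.60 without Nr4a2, -0.51 within libraries and -0.17 with ranks. Clu became -0.13 and Alcam -0.14 within libraries. Depth limits genes near 16 CPM, which rest on few cells.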
